A study of Homo sapiens with 9 samples.

Results

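The SSX2 knockdown was compared with its scramble control in 22Rv1 cells, a human prostate carcinoma line, over all 67528 transcripts with a value on an Affymetrix Human Transcriptome Array. The 6 arrays of this comparison were all arrays labelled knockdown (KD, 3) and scramble (SCR, 3), out of 9 arrays in the series. KD cells were transfected by lipofectamine with a short hairpin RNA (shRNA) against SSX2, SCR cells received an shRNA of scrambled sequence, and both were kept in medium with 1 mg/ml neomycin. The 3 remaining arrays came from untransfected cells (WT). They are used here to estimate the spread and, with the other arrays, to pick the transcript of each gene. For the switched transcripts described below they are a reference that the rule did not use. All cells were grown to confluence in DMEM with serum. The arrays of a group were technical replicates, so every p-value below measures the spread between such arrays and not between separately made lines, and the sources do not say whether the KD line was 1 clone or a pool.

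SSX2 is a cancer-testis antigen, a protein made in the male germ line, silent in most adult tissues and switched on again in some tumours. The SSX proteins carry a KRAB-like domain and a repression domain, sit on chromatin and are known for their link with polycomb repressors and, as the fusion partner of SS18 in synovial sarcoma, with BAF chromatin remodelling complexes. 22Rv1 is a luminal prostate line that depends on androgen signalling, so the same arrays also hold the genes of prostate identity.

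All values are log2 intensities, normalised by the authors, and a difference is the mean of the KD arrays minus the mean of the SCR arrays. The array medians were 5.41 to 5.44 in KD, 5.48 to 5.49 in SCR and 5.48 to 5.5 in WT. The submitters gave an average RNA integrity number of 2.50, a low value on that scale, for all samples alike. The targeted gene fell: the brighter of the 2 transcripts shared by SSX2 and its copy SSX2B had levels of 5.19, 5.06 and 5.14 in KD against 11.94 on each SCR array. SCR and WT cells differed at 145 transcripts by the test used below, 68 of them by at least 2-fold. KD and SCR differed at 5919, and 3594 of these by at least 2-fold.

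A transcript was called higher or lower where limma's test, with a Bonferroni correction over all transcripts, gave an adjusted p under 0.05. By this rule 2756 transcripts (4.08%) were higher in KD and 3163 (4.68%) lower. Each gene was read from 1 transcript, the brightest that carried no other symbol, and of 22465 genes 1748 (7.78%) were higher and 1707 (7.6%) lower. The median difference over all genes was -0.06 and the median absolute difference 0.18. Of the genes called, 981 were higher and 862 lower by at least 2-fold, 295 and 228 by at least 4-fold, and 31 and 34 by at least 16-fold.

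The share of genes called depended on how bright a gene was. Of the 4877 genes whose brighter group had a mean under 5, 0.574% were higher and 0.759% lower. Of the 917 genes at 10 and over, 23.7% were higher and 13.1% lower, so lists of abundant genes start from a larger share. Among the 10661 genes with a mean of at least 7 in the brighter group, 13.6% were higher and 12.5% lower, and these shares are set beside the lists below. A gene can reach that level through the group in which it is high, so these shares depend in part on the difference itself.

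**Figure D1:**
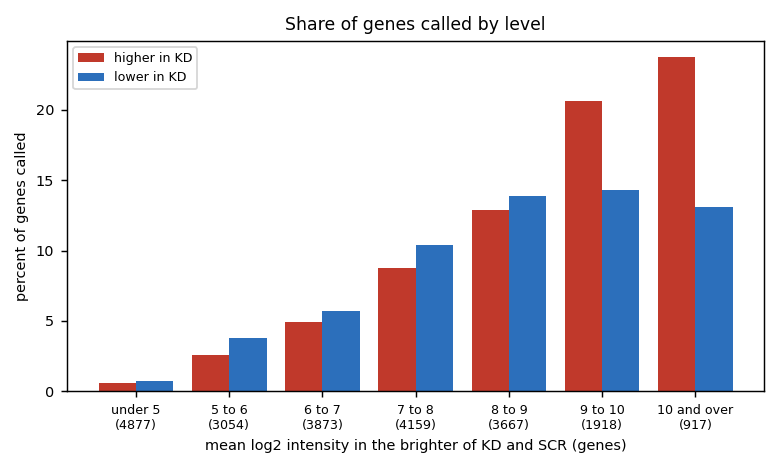
Percent of genes called higher (red) or lower (blue) in KD than in SCR, by the mean log2 intensity in the brighter of both groups, with the number of genes under each pair of bars. The share called rose from under 1% of genes below a level of 5 to 23.7% higher and 13.1% lower at 10 and over.

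A further question was which transcripts went from background to a clear signal. The array carries 23 antigenomic probe sets, which match no human sequence and differ in GC content, and the lowest set lay at 1.89 to 1.97 and the highest at 11.93 to 12.19 on the 6 arrays. A transcript was taken as switched when all 3 arrays of one group lay at or under the 75th percentile of these sets on that array (6.89 to 7.04) and all 3 arrays of the other group lay at least 2 log2 units above it. That limit is the level of a GC-rich background set. The median set, with 14 G or C bases, lay at only 3.65 to 3.76, so a gene under the higher limit may still have been expressed at a low level. The levels choose these transcripts, so they are described and not tested.

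By this rule 109 transcripts were switched on in KD and 90 were switched off. The switched-on transcripts held 69 genes under a symbol of their own, and the switched-off ones 51. The smallest difference among them was 2.01 for a switched-on and 2.32 for a switched-off transcript, with medians of 3.64 and 4.07. At the edge of the rule stood TTC7B, 2.01 above the limit on its lowest KD array, and CABYR at 1.99, which was left out. On the other side SSBP2 lay 2.0 above the limit and ZNF43 at 1.99 was left out.

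**Figure D2:**
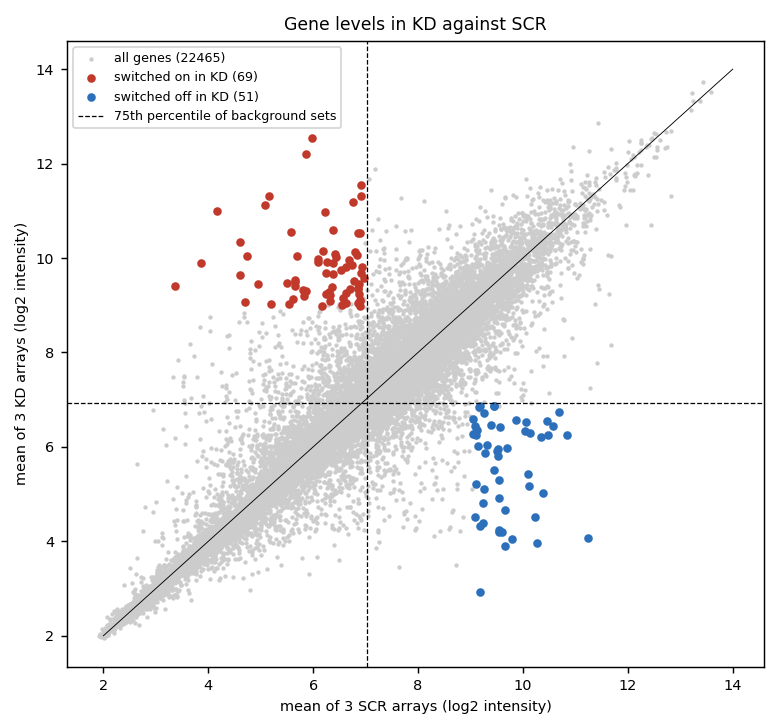
Mean log2 intensity of each of 22465 genes on the 3 KD arrays against the 3 SCR arrays, with the 69 genes switched on in KD in red, the 51 switched off in blue, the 75th percentile of the background sets as dashed lines and equal levels as a solid line. Both groups of switched genes lie well off the line, and most stay above the median background set, at 3.65 to 3.76, where they are off.

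The WT arrays, which the rule did not use, lay on the SCR side. Of the 109 transcripts switched on in KD, 100 were at or under the limit on all 3 WT arrays, none was 2 units above it, and 9 were in between. Of the 90 switched off in KD, none was at or under the limit in WT, 56 were at least 2 units above it on all 3 arrays, and 34 were in between. PRUNE2 was one of the latter, with WT levels of 7.96, 8.01 and 7.90 against 9.22, 9.25 and 9.25 in SCR.

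Among the switched-off genes with a symbol of their own, EPHA3 had the largest difference. It is a receptor tyrosine kinase for ephrins. Its levels were 4.06, 4.26 and 3.92 on the KD arrays and 11.23, 11.23 and 11.28 on the SCR arrays, a difference of -7.17. FOLH1B, a near copy of the gene for prostate-specific membrane antigen, went from a mean of 10.27 to 3.97, although probes for the copy can also bind FOLH1. POTEE, POTEF, POTEJ and POTEI belong to a primate family of ankyrin repeat proteins with near-identical sequences, and their differences of -5.76 to -5.35 cannot be separated from one another with certainty. LOC650226, which carries no gene name, differed by -4.87.

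LIN7A, a scaffold protein of cell polarity, had levels of 4.23, 4.42 and 4.31 in KD and 9.14, 9.20 and 9.19 in SCR. APLN, the peptide ligand of the apelin receptor, was at 6.14, 6.26 and 6.34 in KD and 10.87, 10.83 and 10.83 in SCR. PLXDC2, a transmembrane protein with a plexin domain, went from a mean of 9.09 to 4.51. GRHL2, a transcription factor that maintains epithelial gene expression, was at 5.28, 5.27 and 5.31 in KD against 9.55, 9.55 and 9.56 in SCR. The others of the 20 genes that had the largest differences within the switched-off set were SLITRK6, PTPRB, COLCA1, COLEC12, SSX3, GPC6, SEMA6A, FAR2 and PRUNE2, with differences between -6.25 and -4.43.

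Within the switched-on set the largest difference was that of a noncoding gene. LINC00707, a long intergenic RNA, had levels of 11.13, 10.94 and 10.92 in KD and 4.0, 4.17 and 4.30 in SCR, a difference of 6.84. TM4SF1, a membrane protein of the tetraspanin-like family found on many carcinoma cells, was at 11.51, 11.26 and 11.21 in KD and 5.15, 5.11 and 5.18 in SCR. OSMR, the receptor subunit for oncostatin M, rose from just under the limit, with 6.90, 6.91 and 6.91 in SCR, to 11.67, 11.51 and 11.47. UCHL1, a deubiquitinating enzyme of neurons, went from a mean of 5.57 to 10.55.

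The 20 genes with the largest differences within the switched-on set also held the following. PYGL, the liver form of glycogen phosphorylase, had levels of 11.30, 11.32 and 11.30 in KD and 6.89, 6.96 and 6.88 in SCR. BCAT1, the cytosolic aminotransferase of branched-chain amino acids, went from a mean of 5.70 to 10.05. MSN, the gene of moesin, which ties membranes to actin, went from 6.75 to 11.19, and LMO3, a LIM-only transcription cofactor, from 4.70 to 9.07. GRAMD1B, a protein of sterol transport between membranes, went from 4.95 to 9.46, and TGFBR2, the type II receptor of TGF-beta, from 5.5 to 9.48. ANXA2P2, RPL31P11 and TMSB4XP8 are processed pseudogenes, and their signal may come from the parent genes. The remaining genes of these 20 were ANXA2, MYOF, ANXA1, ANKRD1, EDIL3, ANXA3 and AXL, with differences between 4.75 and 6.35.

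**Figure D3:**
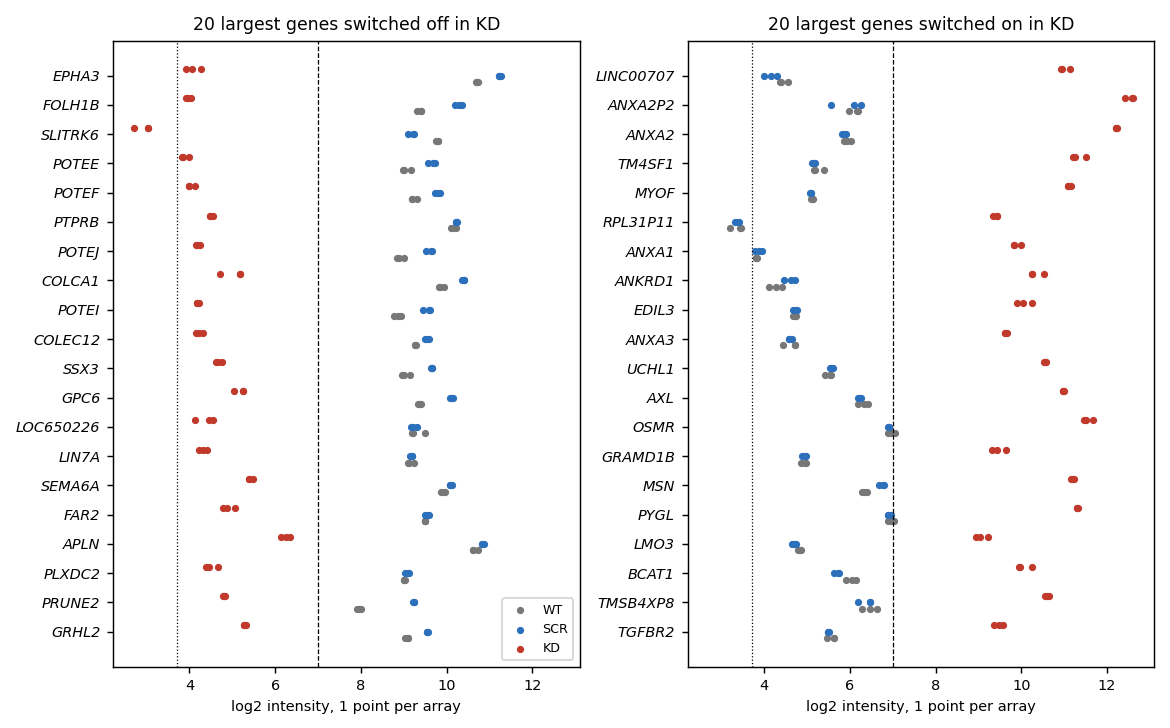
Log2 intensity on each array (KD red, SCR blue, WT grey) for the 20 genes switched off (left) and the 20 switched on (right) in KD with the largest difference. The dashed line is the mean over arrays of the 75th percentile of the background sets and the dotted line that of their median; WT lies nearer to SCR than to KD for each of these genes, and PRUNE2 sits between both, at a WT mean of 7.96.

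The set of switched genes changed with the background limit. With the median background set as the limit, 37 transcripts were switched on and 18 off, and of the genes found only RPL31P11 and SLITRK6 were also in the first sets. The 15 genes then switched on held BCHE, the butyrylcholinesterase, with levels of 7.99, 7.83 and 7.68 in KD and 3.44, 3.44 and 3.40 in SCR. They also held sensors of foreign molecules, TLR6 (mean 7.49 in KD and 3.33 in SCR) and CGAS, the cytosolic DNA sensor (6.45 and 3.58). Others were the germ line genes BRDT (7.50 and 3.54) and DDX43 (7.04 and 3.67). The remaining ones were LDAH, SLFN12, SCEL, CCDC82, KYNU, LGSN, NUDT12, PPP4R4, MYO3A and RPL31P11.

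The 5 genes switched off under the median limit included SCG3, a secretory granule protein, with levels of 3.53, 3.54 and 3.43 in KD and 8.63, 8.76 and 8.80 in SCR. They also included SLITRK6, the antisense RNA ST8SIA6-AS1 (3.45 in KD and 7.64 in SCR) and LRRC7, a synaptic scaffold. The mean of LRRC7 was 5.78 in SCR, 4.11 in WT and 3.65 in KD, so its WT arrays lay nearer to KD.

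The promoters of the switched genes were read from RefSeq (GRCh38.p14) as the 250 bases before and 50 after each gene's start. A promoter was found for 55 of the 69 genes switched on, 34 of the 51 switched off and 15247 of all 22465. Short motifs were searched on both strands. TGANTCA, the AP-1 motif, was in 10.9% of switched-on and 11.8% of switched-off promoters, 6 and 4 genes, against 6.13% of all. GGAATG, bound by TEAD factors, the DNA-binding partners of YAP and TAZ, was in 12.7%, 5.88% and 11.9%. TGACNNNGC, the NRF2 motif, which can overlap an AP-1 match, was in 14.5%, 20.6% and 14.6%, CANNTG (E-box) in 63.6%, 67.6% and 64.9%, and TATAAA in 10.9%, 8.82% and 9.44%. A match only says that the letters are there.

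Base composition was close to that of all genes. The median GC content was 63.7% for switched-on, 60.8% for switched-off and 62.3% for all promoters, and the median ratio of observed to expected CpG was 0.75, 0.68 and 0.76. Over the larger sets of genes called with at least a 2-fold change, 78.5% of 763 promoters of higher genes and 65.8% of 632 of lower genes had a ratio above 0.6, against 64.5% of all. These shares are a description, with no test.

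Promoters of 5 switched genes are shown because they hold matches to the AP-1, TEAD, NRF2 or TATAAA motifs, which stand in capitals, while matches to the E-box are not marked. ANKRD1, at chr10:90921038-90921337 (minus strand), has GGAATG at -220 and -128 and an AP-1 match at -195, counted from the start. TM4SF1, at chr3:149377600-149377899 (minus strand), has an NRF2 match at -239 and GGAATG, once on each strand, at -122 and -13. ANXA2, at chr15:60397937-60398236 (minus strand), has an AP-1 match at -127 and TATAAA at -31.
ANKRD1: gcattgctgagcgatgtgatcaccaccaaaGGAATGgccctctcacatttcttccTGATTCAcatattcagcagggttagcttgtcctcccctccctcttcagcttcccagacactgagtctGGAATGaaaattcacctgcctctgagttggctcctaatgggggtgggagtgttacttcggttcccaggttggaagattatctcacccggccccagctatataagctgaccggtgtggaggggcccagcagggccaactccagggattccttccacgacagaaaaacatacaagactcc
TM4SF1: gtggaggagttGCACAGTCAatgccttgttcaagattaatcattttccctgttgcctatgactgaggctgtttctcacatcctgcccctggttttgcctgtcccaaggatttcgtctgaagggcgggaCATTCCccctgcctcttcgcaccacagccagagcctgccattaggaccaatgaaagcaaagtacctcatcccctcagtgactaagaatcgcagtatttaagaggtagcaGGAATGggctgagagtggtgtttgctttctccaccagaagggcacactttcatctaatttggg
ANXA2: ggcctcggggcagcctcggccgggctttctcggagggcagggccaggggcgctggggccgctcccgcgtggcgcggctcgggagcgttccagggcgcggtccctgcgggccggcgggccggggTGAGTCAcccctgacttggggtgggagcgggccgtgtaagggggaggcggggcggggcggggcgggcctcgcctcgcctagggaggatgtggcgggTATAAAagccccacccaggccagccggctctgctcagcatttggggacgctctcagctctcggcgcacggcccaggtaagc
Of the switched-off genes, SLITRK6, at chr13:85799370-85799669 (minus strand), has an AP-1 match at -20 that shares its bases with an NRF2 match from -22. KLK2, at chr19:50873189-50873488 (plus strand), encodes the kallikrein-related peptidase of prostate secretion and has GGAATG at -206 and TATAAA, on the other strand, at -34.
SLITRK6: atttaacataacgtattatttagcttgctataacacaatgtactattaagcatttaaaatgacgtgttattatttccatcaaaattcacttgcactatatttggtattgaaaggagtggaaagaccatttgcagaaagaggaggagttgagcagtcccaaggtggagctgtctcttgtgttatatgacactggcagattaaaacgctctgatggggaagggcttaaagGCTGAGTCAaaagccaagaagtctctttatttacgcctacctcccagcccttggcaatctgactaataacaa
KLK2: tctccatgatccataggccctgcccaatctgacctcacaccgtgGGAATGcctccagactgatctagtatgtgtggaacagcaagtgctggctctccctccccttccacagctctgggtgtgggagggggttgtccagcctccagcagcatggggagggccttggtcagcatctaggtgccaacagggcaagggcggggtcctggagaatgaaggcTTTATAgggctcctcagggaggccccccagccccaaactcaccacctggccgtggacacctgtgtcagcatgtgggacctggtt

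Beyond single genes, 55 lists of pathway members, families and markers were counted. Of the genes in them, 790 were called. Of the switched genes, 33 of the 69 switched on were in at least 1 list and 7 of the 51 switched off. The share of all genes that are in a list was not counted, and the lists were chosen with earlier results of these data known. These counts thus describe the lists and say nothing about the switched genes as such. The counts below can be read against the shares over all genes (7.78% higher and 7.6% lower) and over the brighter genes (13.6% and 12.5%), and no test of the lists was made.

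**Figure D4:**
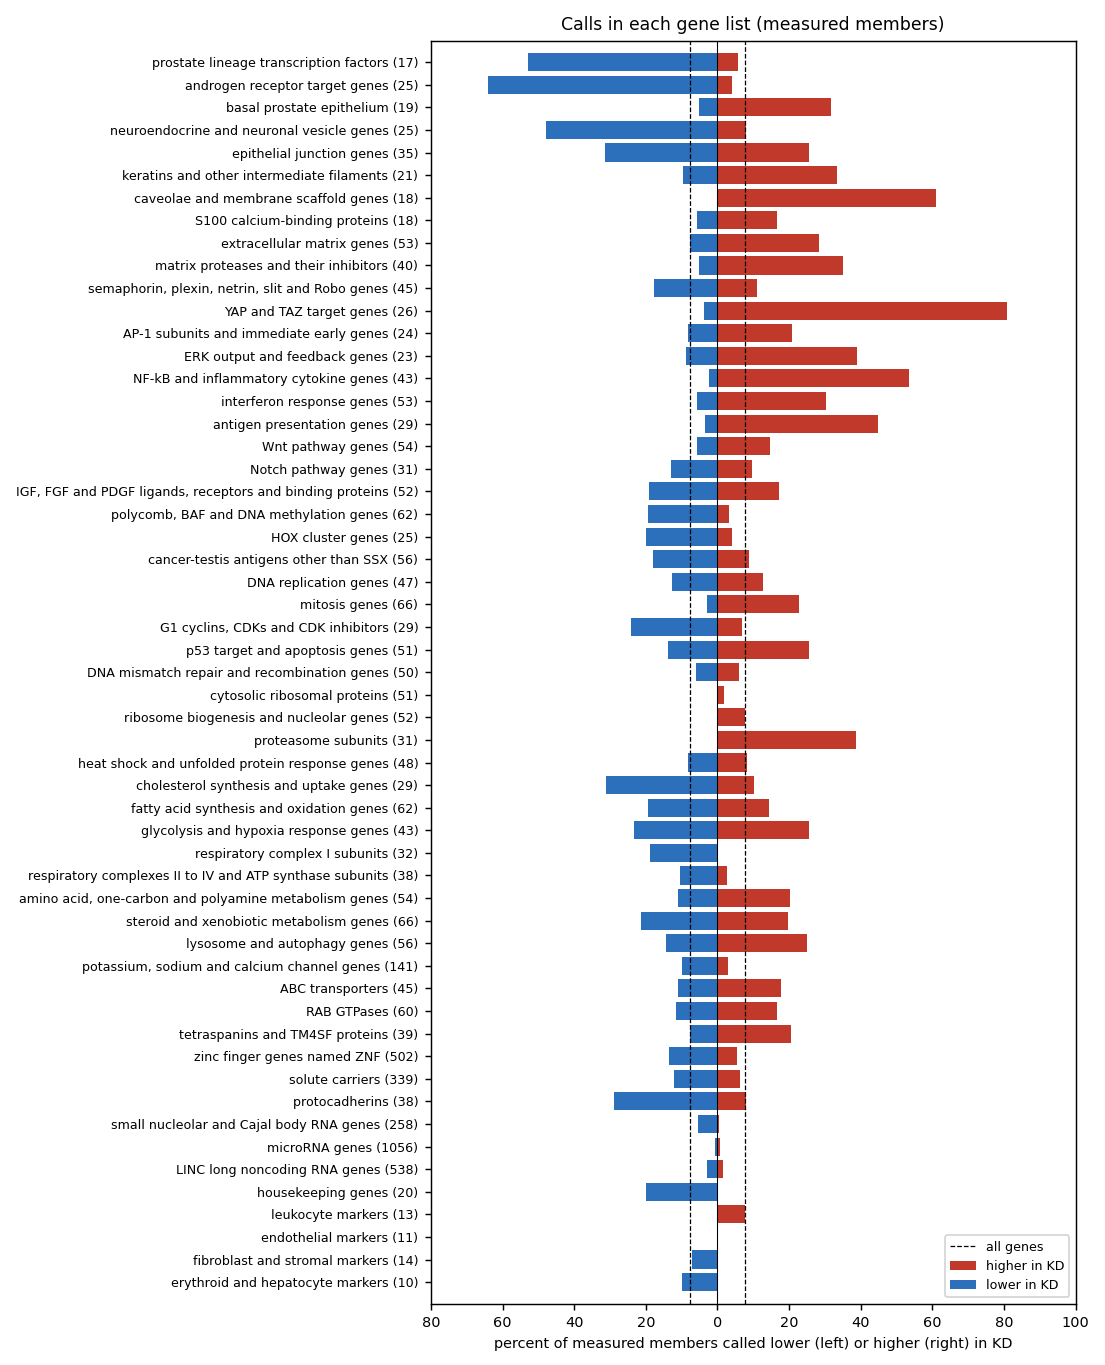
Percent of the measured members of each of 55 lists called lower (blue, left) or higher (red, right) in KD than in SCR, with the number measured in brackets and the shares over all genes (7.6% lower, 7.78% higher) as dashed lines. YAP and TAZ targets have the longest bar on the right (80.8%) and androgen receptor targets the longest on the left (64.0%).

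Of 25 measured target genes of the androgen receptor, 16 fell and 1 rose, and the median difference was -1.58. The largest falls were in HPGD, KLK2 and KLK4. HPGD, which breaks down prostaglandins, had levels of 4.25, 4.12 and 4.28 in KD and 8.76, 8.80 and 8.83 in SCR, a fall of 4.58 on the log2 scale (SE 0.06, adjusted p = 8e-10, limma). KLK3, which encodes prostate-specific antigen, was at 6.29, 6.24 and 6.34 in KD and 7.92, 7.86 and 7.82 in SCR. ABCC4, an exporter of cyclic nucleotides and drugs, was the member that rose, from a mean of 6.88 to 9.24. MSMB, TRPM8 and STEAP4 were dim in both groups, with differences of -0.49, -0.01 and 0.08.

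Of 17 transcription factors of the prostate lineage, 9 fell and 1 rose, with a median of -0.98. EHF, an ETS factor of epithelia, was at 4.84, 4.95 and 4.66 in KD and 7.83, 7.88 and 7.85 in SCR. SPDEF, another ETS factor of secretory cells, fell by 2.93 on the log2 scale. FOXA1, which opens chromatin for the androgen receptor, had levels of 8.11, 8.14 and 8.02 in KD and 10.28, 10.32 and 10.29 in SCR, and HOXB13 went from a mean of 8.77 to 6.44. Both were still above the median of their arrays. KLF5, a factor of basal cells, rose by 1.26. The luminal keratins KRT8 and KRT18 and the epithelial marker EPCAM did not pass, with differences of 0.08, 0.10 and 0.01.

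Of 25 neuroendocrine and neuronal vesicle genes 12 fell and 2 rose (median -0.69). The largest falls were in SCG3 (-5.23), SYT4 (-3.49), a synaptotagmin, and UNC13A (-3.40), which primes vesicles for release. The 2 rises were UCHL1 and SYT1. CHGA, the chromogranin used as a clinical marker, had a difference of -0.55 and did not pass. Of 19 genes of basal prostate epithelium 6 rose and 1 fell, the rises led by ITGA6, CAV1 and DSC3. Of 21 keratins and other intermediate filaments 7 rose and 2 fell, and VIM, the mesenchymal filament vimentin, rose by 3.96. Of 18 S100 calcium-binding proteins 3 rose and 1 fell, with S100A10, the partner of ANXA2, higher by 1.67, while S100P fell by 1.12. The call of S100P was lost without KD1, KD2, any 1 SCR array or any 1 WT array, and with quantile normalization.

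Targets of YAP and TAZ, the transcription cofactors of the Hippo pathway, had the largest share called. Of 26 genes 21 rose and 1 fell, with a median of 1.66. Among the 23 members with a mean of at least 7 in the brighter group, 20 rose. Members such as ANKRD1 and MYOF, with SCR means of 4.6 and 5.08, passed this level only through KD, so the count is no separate support. Besides MYOF, ANKRD1 and AXL, genes picked after their values were seen show the size further down the list. CCN1, a matricellular protein and a standard target, was at 10.69, 10.45 and 10.43 in KD and 6.96, 6.85 and 6.85 in SCR (difference 3.64, SE 0.07, adjusted p = 1e-07, limma). LATS2, a kinase that restrains YAP and is itself a target, was at 8.82, 8.86 and 8.72 against 6.78, 6.78 and 6.87. IGFBP3, a binding protein of insulin-like growth factors, was the member that fell, with a difference of -2.66. BIRC5, EDN1, FOXF2 and GADD45A did not pass, with differences of 0.35, 0.41, 0.09 and 0.00. With a one-way ANOVA of the KD and SCR arrays alone, the kind of test the methods name, 7 of the 26 were higher.

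**Figure D5:**
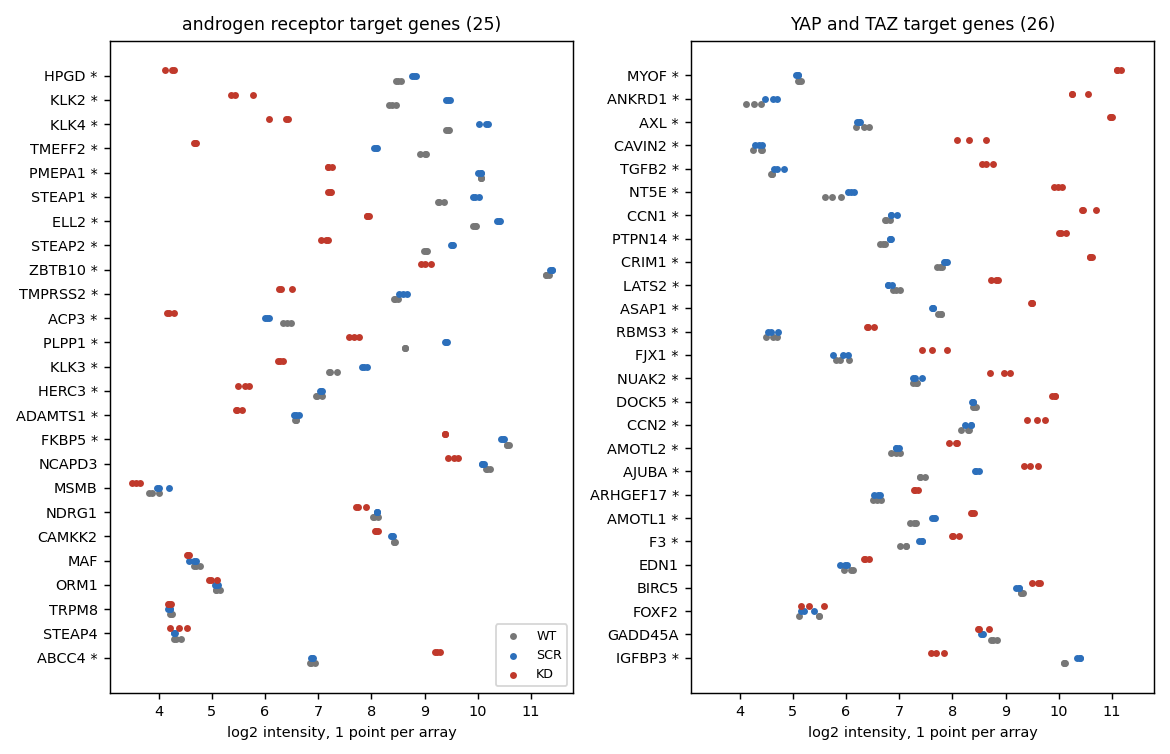
Log2 intensity on each array (KD red, SCR blue, WT grey) of 25 androgen receptor target genes (left) and 26 YAP and TAZ target genes (right), ordered by the difference between KD and SCR; an asterisk marks genes that passed the limma test. On the left 16 marked genes lie lower in KD and ABCC4 higher; on the right 21 lie higher and IGFBP3 lower.

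Of 18 genes of caveolae and membrane repair 11 rose and none fell by limma, with a median of 1.06, led by ANXA2, MYOF and CAVIN2. CAVIN2, a coat protein of caveolae, was at 8.63, 8.32 and 8.08 in KD and 4.36, 4.42 and 4.29 in SCR. CAV2, CAVIN3 and DYSF did not pass, with differences of 0.30, 0.50 and 0.45. The members with a difference below 0 were FLOT2, OTOF and CAV3, at -0.12, -0.10 and -0.05.

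Of 53 matrix genes 15 rose and 4 fell, although the median was only 0.09, and of 40 proteases and inhibitors 14 rose and 2 fell, also with a median of 0.09. EFEMP1, a fibulin, went from a mean of 5.65 to 9.40. PLAU, the urokinase that activates plasminogen, was at 9.55, 9.25 and 9.16 in KD and 5.86, 5.78 and 5.8 in SCR, and its receptor PLAUR rose by 2.18. The largest falls were in MMP16 (-2.50), a membrane-bound metalloprotease, and COL4A5 (-1.20), a basement membrane collagen.

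Of 43 NF-kB and cytokine genes 23 rose and 1 fell (median 0.69). The largest rises were OSMR, IL18 and CXCL8. IL18, a cytokine of the interleukin-1 family, was at 8.02, 7.84 and 7.91 in KD and 3.76, 3.6 and 3.83 in SCR. CXCL8, the neutrophil chemokine, was at 7.14, 6.93 and 6.67 against 3.53, 3.71 and 3.43. NFKBIZ fell by 0.92, and it did not pass without KD2, KD3, SCR1 or SCR2. IL1A, IL1B, TNF and CCL2 did not pass and differed by -0.13 to -0.03. With that ANOVA 2 of the 43 were higher.

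Of 29 genes of antigen presentation and stress ligands 13 rose and 1 fell (median 0.65). ULBP1, a ligand of the NKG2D receptor on natural killer cells, was at 10.01, 9.36 and 9.19 in KD and 6.84, 6.80 and 6.70 in SCR. ULBP3 and HLA-B rose by 2.29 and 2.23. The B2M gene, for the light chain that HLA class I needs, fell by 0.69, and its WT mean of 10.25 lay beside KD at 10.33 and not beside SCR at 11.02. That call was lost without KD1, KD2, KD3, SCR1 or SCR2. The HLA genes resemble each other, so the signal of single members is uncertain.

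Of 53 interferon response genes 16 rose and 3 fell, with a median of 0.26. JAK1, a kinase of the interferon receptors, was 2.90 higher, IFI6 2.65 and HERC6 2.38. The differences of the falling genes DTX3L, PARP9 and RSAD2 were -0.93, -0.86 and -0.81. Of 23 ERK output and feedback genes 9 rose and 2 fell (median 0.60). EREG, the growth factor epiregulin, rose by 4.73 and DUSP5, a nuclear phosphatase of ERK, by 3.59, while CCND1, cyclin D1, fell by 1.75 and SPRY4 fell by 1.13.

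Of 54 Wnt pathway genes 8 rose and 3 fell, of 31 Notch genes 3 (9.68%) and 4 (12.9%), of 52 genes of the IGF, FGF and PDGF systems 9 and 10, of 45 semaphorin, plexin, netrin, slit and Robo genes 5 and 8, and of 24 AP-1 and immediate early genes 5 and 2. DKK1, a secreted Wnt antagonist, went from a mean of 5.66 to 9.49, and LEF1, a factor that acts with beta-catenin, from 7.21 to 5.08. HES1, a main target of Notch, fell by 1.70. FOSL1, an AP-1 subunit, rose by 1.90, and FOS and FOSB had differences of -0.96 and -0.91. The rises in the Wnt list were 5 without KD2, SCR1 or SCR2, and the falls of FOS and FOSB were called with all arrays, not without KD1, KD2, KD3, SCR1, SCR2, SCR3 or WT3.

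Of 51 cytosolic ribosomal proteins 1 rose, RPS29 by 0.77, none fell by limma, and the median was 0.02. Of 66 mitosis genes 15 rose and 2 fell (median 0.25), led by KIF20B, a kinesin of cytokinesis, which went from a mean of 6.11 to 8.54. The share of rises, 22.7%, stands beside 13.6% of the brighter genes. The list is bright, with a mean level of 9.15 to 9.22 on the KD arrays. Of all genes at 9 to 10, 20.6% were higher, so the share is near that of genes of like level. Without KD1 or KD3 the rises were 9, and the falls were 1 without any 1 of the 9 arrays. Of 47 DNA replication genes 6 rose and 6 fell. The rises were 2 or 3 without KD3, SCR1, SCR2 or SCR3 and the falls 2 or 3 without any 1 of the 9 arrays. Of 29 G1 genes 7 fell and 2 rose (median -0.21), with CCND1 and CDKN1B, the inhibitor p27, lowest relative to SCR. The falls were 4 without SCR3, and the 2 rises, CCNE1 and E2F3, were 1 without any 1 of the 9 arrays.

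Of 31 proteasome subunits 12 rose and none fell by limma, with a median of 0.41. PSMA6, a subunit of the outer ring of the core, was at 10.85, 10.96 and 10.89 in KD and 9.43, 9.41 and 9.44 in SCR (difference 1.47, SE 0.05, adjusted p = 5e-06, limma). PSMD5 and PSMA3 rose by 1.17 and 1.06. The count was 6 without KD2, SCR1, SCR2 or SCR3 and 7 without KD3, and 1 by the ANOVA. Of 52 nucleolar and ribosome biogenesis genes 4 rose (7.69%, near the 7.78% over all genes), led by NOC3L, and 1 to 2 of them without KD2, KD3, SCR1, SCR2, SCR3 or any 1 WT array.

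Of 51 p53 target and apoptosis genes 13 rose and 7 fell (median 0.07). CASP8, the initiator caspase of death receptors, was at 7.95, 7.86 and 7.97 in KD and 5.37, 5.40 and 5.47 in SCR, and BID, its substrate, rose by 2.0. TP53INP1 fell by 3.07 and GDF15, a stress-induced cytokine, fell by 2.66. Of 50 mismatch repair and recombination genes 3 rose and 3 fell, shares of 6.0% each, under those of all genes, with FANCF, an adaptor of the Fanconi pathway, which fell by 2.28. The 3 rises were 1 without any 1 KD or SCR array. Of 48 heat shock and unfolded protein genes 4 rose and 4 fell (8.33% each, near the shares over all genes), and the falls were 1 or 2 without KD3, any 1 SCR array or any 1 WT array.

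Of 29 genes of cholesterol synthesis and uptake 9 fell and 3 rose (median -0.58). MSMO1, a sterol methyl oxidase, was at 8.45, 8.54 and 8.54 in KD and 10.04, 9.98 and 10.03 in SCR, and TM7SF2 fell by 1.46 and INSIG1 fell by 1.36. The rises were NPC1, which exports cholesterol from lysosomes and went from a mean of 8.54 to 10.99, INSIG2 and ABCA1. The 9 falls were 5 without KD3, SCR2 or SCR3. HMGCS1, with a difference of -0.92, did not pass, with KD levels of 9.60, 10.08 and 10.13.

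Of 32 subunits of respiratory complex I, the entry point of the electron transport chain, 6 fell and none rose by limma, with a median of -0.45. NDUFA5 was at 7.04, 7.10 and 7.07 in KD and 8.21, 8.21 and 8.13 in SCR (difference -1.11, SE 0.05, adjusted p = 5.9e-05, limma). These falls were small, and leaving out 1 KD or SCR array left 1 to 3 of them. Of 38 subunits of the other complexes 4 fell and 1 rose (median -0.23), with ATP5F1A of the ATP synthase at -0.99, and the falls were 2 without KD1, KD3, SCR1, SCR2, SCR3 or WT2.

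Of 43 glycolysis and hypoxia genes 11 rose and 10 fell. EPAS1, a hypoxia-inducible factor, went from a mean of 6.32 to 9.09 and PFKP, a phosphofructokinase, from 7.15 to 9.67. CA12, a carbonic anhydrase, fell by 1.99. The falls were 6 without KD3 or SCR3. Of 62 fatty acid genes 9 rose and 12 fell, with ME1, the malic enzyme, 3.10 higher and ACSL1, a long-chain acyl-CoA synthetase, at a difference of -2.91. The falls were 5 to 7 without any 1 KD or SCR array. Of 66 steroid and xenobiotic genes 13 rose and 14 fell, of 54 amino acid, one-carbon and polyamine genes 11 and 6, and of 56 lysosome and autophagy genes 14 and 8. The lysosomal protease CTSC went from 6.86 to 9.34. The 8 falls in the last list were 2 to 5 without KD1, KD2, KD3, SCR1, SCR2, SCR3 or WT1.

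Among 62 polycomb, BAF and DNA methylation genes, of interest since SSX proteins act with these complexes, 12 fell and 2 rose, with a median of -0.09. SMARCA4 and SMARCA2, the alternative ATPases of BAF complexes, both fell. SMARCA4 was at 7.54, 7.63 and 7.68 in KD and 9.10, 9.10 and 9.08 in SCR, and SMARCA2 at 7.35, 7.29 and 7.23 against 8.54, 8.56 and 8.62. ACTL6B, a BAF subunit of neurons, fell by 1.47. PHF19, a partner of polycomb complex 2, rose by 1.21, and UHRF1 by 0.88. The polycomb core genes EZH2, EED and SUZ12 did not pass, with differences of -0.15, 0.28 and 0.48. The falls were 6 or 7 without any 1 KD or SCR array, a share near that of the brighter genes.

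Of 56 cancer-testis antigens other than SSX 10 fell and 5 rose. MAGEA1 was at 6.42, 6.35 and 6.67 in KD and 8.94, 9.03 and 8.82 in SCR, and CTAG2 and CSAG1 had differences of -1.98 and -1.94, while BRDT, DDX43 and CT83 rose by 3.96, 3.37 and 2.86. The falls were 5 or 6 without KD1, KD3, SCR3 or WT2. Within the SSX family itself all 11 transcripts fell. Among them were differences of -3.58 for SSX9, -2.25 for SSX5, -1.73 for SSX6P, -1.61 for SSX1, -1.33 for SSX7 and -0.94 for SSX8P. The transcripts shared by SSX4 and SSX4B differed by -2.67 and -2.72. SSX2IP, a gene of a binding partner and no SSX copy, differed by -0.09. The SSX genes are close in sequence, so signal of one may include that of another. Of 25 HOX genes 5 fell and 1 rose, the largest falls after HOXB13 in HOXC12 (-1.83) and HOXC4 (-0.99). The falls were 3 without KD1, KD2, SCR2 or SCR3, and the rise, HOXB9, was not called without KD2, any 1 SCR array or any 1 WT array, or with quantile normalization.

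Of 502 ZNF genes 68 fell (13.5%) and 27 rose (5.38%), and of 339 solute carriers 41 fell (12.1%) and 21 rose (6.19%). ZNF655 went from a mean of 4.52 to 7.56 and ZNF716 from 7.74 to 4.57. The ZNF falls were 38 to 41 and the rises 13 to 16 without any 1 KD or SCR array, and the rises 15 without WT2. Of 141 potassium, sodium and calcium channel genes 14 fell and 4 rose, with KCNH1, a voltage-gated potassium channel, 2.49 higher. The channel falls were 7 to 9 without any 1 KD or SCR array or WT3. Of 45 ABC transporters 8 rose (17.8%) and 5 fell (11.1%), the falls 3 without KD3, SCR1, SCR2 or SCR3, and of 60 RAB genes 10 rose and 7 fell.

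Of 38 protocadherins 11 fell and 3 rose (median -0.37). PCDHB8 was at 5.27, 5.23 and 5.19 in KD and 7.97, 8.24 and 7.97 in SCR, and PCDHGB5 went from 5.09 to 7.55. The falls were 7 with the arrays centred on their medians and 5 to 7 without any 1 KD or SCR array or WT1. Of 35 epithelial junction genes 9 rose and 11 fell, with CLDN1 and DSC2 higher by 3.44 and 2.72 and CLDN7 and PERP at differences of -2.85 and -1.91. The falls were 5 to 7 without any 1 KD or SCR array. Of 39 tetraspanins 8 rose and 3 fell, and the rises were 5 without any 1 KD or SCR array.

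Families were also formed from the letters that open the gene symbols, with at least 15 measured genes, and ranked by the share called. The annexins stood first (9 of 15 higher, none lower by limma). Their rises included the pseudogene ANXA2P2, whose probes may read ANXA2 itself. HMGN, small nucleosome-binding proteins, came next with 8 of 16 lower. HMGN5 was at 6.70, 6.46 and 6.40 in KD and 8.36, 8.46 and 8.59 in SCR, and HMGN2 fell by 1.46, but most of the others are HMGN2 pseudogenes whose probes may read HMGN2 itself. The ZDHHC palmitoyltransferases had 9 of 25 lower and 2 higher. The TNFRSF receptors had 6 of 16 higher and none lower by limma, with TNFRSF9 higher by 1.79 and TNFRSF12A, the receptor of TWEAK, by 1.63. At the other end no gene was called among 88 KRTAP, 27 TAS and 37 TRBV genes, which belong to hair, taste and T cells.

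Of 258 small nucleolar and Cajal body RNA genes 14 fell and 1 rose. All 14 falls were among the 106 members with a mean of at least 7 in the brighter group, a level at which 12.5% of all genes were lower. SNORA22 was at 10.08, 10.15 and 9.96 in KD and 11.62, 11.58 and 11.65 in SCR. The falls were 9 with the arrays centred and 4 to 8 without any 1 KD or SCR array, and the 1 rise, SNORD72, was not called without KD1, KD2, KD3, SCR1, SCR3, WT1 or WT2. Of 538 LINC genes 9 rose and 16 fell, and LINC00857 and LINC00648 rose by 4.51 and 3.6. The LINC falls were 7 to 9 without any 1 KD or SCR array.

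Of 1056 microRNA genes 9 rose and 8 fell. These probes read the precursor or its host transcript and not the mature microRNA. MIR4668 was at 5.89, 5.43 and 5.62 in KD and 2.62, 2.95 and 2.37 in SCR, MIR29A at 5.42, 5.33 and 5.09 against 3.09, 3.33 and 3.23, and MIR21 at 6.75, 7.01 and 7.27 against 5.14, 5.33 and 5.03. MIR1299 had the largest fall, with a difference of -2.02. The mature forms from RefSeq (GRCh38.p14) are given for the best-known genes called and for the partners of their clusters, with the seed, bases 2 to 8, in capitals.
hsa-miR-21-5p: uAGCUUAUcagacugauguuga
hsa-miR-29a-3p: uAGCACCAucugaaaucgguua
hsa-miR-221-3p: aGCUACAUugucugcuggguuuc
hsa-miR-222-3p: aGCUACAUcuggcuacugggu
hsa-miR-141-3p: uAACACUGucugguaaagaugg
hsa-miR-200c-3p: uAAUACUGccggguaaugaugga
MIR221 and MIR222 lie side by side and share the seed GCUACAU. MIR221 rose by 1.30 (adjusted p = 0.025, limma), and MIR222, at 3.86, 4.16 and 4.02 in KD and 2.81, 3.24 and 2.93 in SCR, did not pass. MIR141 and MIR200C form the other pair, of the family that restrains ZEB factors. MIR141 fell by 1.14 (adjusted p = 0.036, limma), and MIR200C, with the same difference of -1.14, missed the threshold with an adjusted p of 0.077. MIR221, MIR222, MIR141 and MIR200C were chosen after their values were seen, and the 8 falls were 5 without KD1, KD2, SCR1 or SCR3.

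Markers of other cell types were called at shares near those over all genes (7.78% higher and 7.6% lower), except the endothelial ones. The shares were 7.69% higher for leukocyte, 7.14% lower for stromal and 10.0% lower for erythroid and hepatocyte markers, 1 gene each. Of all genes at 5 to 6 in the brighter group, 2.62% were higher and 3.77% lower. Of 13 leukocyte markers 1 rose and none fell by limma, and their mean level was 5.37 to 5.43 on the KD arrays and 5.21 to 5.28 on the SCR arrays. The one was CD68, a lysosomal protein that macrophages hold in plenty and that other cells also make, which went from a mean of 6.90 to 9.09. None of 11 endothelial markers was called, with a mean level of 5.09 to 5.16 in KD and 5.11 to 5.17 in SCR, and of 14 stromal markers (5.05 to 5.09 and 5.19 to 5.20) LUM fell by 1.14, not called without any 1 KD or SCR array. Of 10 erythroid and hepatocyte markers (4.98 to 5.04 and 5.24 to 5.25) ALB fell by 2.12, with a WT mean of 7.99 above SCR at 6.52. Of 20 housekeeping genes 4 fell and 16 did not pass, and TFRC, the transferrin receptor, had the largest fall, with a difference of -1.29. The falls were 2 without KD1, KD2, KD3, SCR1 or SCR2.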

How the data were processed

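The authors hybridised 9 arrays and deposited log2 intensities normalised by RMA. The submitters' processing notes name Affymetrix Expression Console and Transcriptome Analysis Console 3.0. No source names the genome build behind the probe sets. Of 70523 rows, the 67528 transcript rows were used, and 23 antigenomic rows gave the background. One gene symbol was attached to 23781 transcripts through GEO's platform annotation, several to 1543 and none to 42204. The 22465 genes were tested through their brightest transcript.

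All 9 arrays entered 1 fit with limma 3.58.1 in R 4.3.3, with 1 mean per group and a Bonferroni correction. The fit was tested on simulated data. Alternatives were Benjamini-Hochberg adjustment, a 2-fold minimum, the methods' one-way ANOVA, other scalings, only the KD and SCR arrays, a replicate block, a filter on dim transcripts, another variance model and each array left out.

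Genes were named by rule: the SSX family, the 20 switched-on and 20 switched-off genes with the largest difference, the 3 largest rises and falls in each list and leading family, and members or markers that define a list. Others, such as CCN1, LATS2, KLK3, MIR141, MIR221 and the genes of the edge of the switch rule, were picked after their values were seen. The lists, rules and genes were chosen with earlier results of these data known. The number of arrays limits the precision.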

Additional observations from a re-analysis of the deposited data

How the results depend on the processing

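The 321 named results were those of genes named by rule. Genes named only after their values were seen, such as MIR141 and MIR221, were not among them. All 321 kept their direction under every alternative run. All kept their call with Benjamini-Hochberg adjustment, as a Bonferroni call on the same p-values must. All also kept it with the trended and robust variance, as did the 313 left by the filter on dim transcripts. The call was lost by 237 with the one-way ANOVA, 51 with only the KD and SCR arrays, 6 with centred arrays and 5 with quantile normalization. Most of the 321 were picked for the largest differences, so kept directions and calls are no separate support. Transcripts called higher and lower were 10010 and 15351 with Benjamini-Hochberg, 1684 and 1910 with a 2-fold minimum, 258 and 245 with the ANOVA and 1770 and 1997 with only the KD and SCR arrays; genes were 4929 and 6399, 981 and 862, 180 and 164, and 1135 and 1008. The calls in the lists together, 790, became 2347 with Benjamini-Hochberg, 87 with the ANOVA and 513 with only the KD and SCR arrays. These counts keep the values and change the test, its degrees of freedom or the threshold. Other scalings change the values. Transcripts called higher and lower were 3057 and 2707 with centred arrays and 3016 and 2813 with quantile normalization. Genes were 1930 and 1444, and 1939 and 1519. The larger side among transcripts thus changed with the scaling. The ANOVA here was not the authors' own run, from which the study reported larger counts.

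Without any 1 array, transcripts called higher were 1894 to 2366 and lower 2035 to 2664, genes 1209 to 1488 and 1084 to 1408, calls in the lists 552 to 677, and switched transcripts 109 to 113 on and 91 to 100 off. With 1 array fewer the fit has fewer degrees of freedom.

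With the array number as a replicate block, 1826 transcripts were higher and 2027 lower, and 1164 and 1069 genes. Same-numbered KD and SCR arrays correlated by only 0.025, 0.079 and 0.011 in their deviations from the group means. For SCR and WT the values were 0.01, 0.055 and -0.017. For KD and WT they were 0.001, 0.159 and 0.129, against -0.208 to 0.087 for arrays of unlike number. With 3 arrays a group these values cannot decide whether the numbers pair the arrays. Under the block 43 of the 321 named results lost their call.

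Switched transcripts were 37 on and 18 off with the median background set as the limit, 19 and 12 with the 90th percentile, 338 and 345 with a distance of 1 log2 unit and 32 and 28 with 3 units. With the 60th percentile, chosen after seeing the data, 119 were on and 167 off, and 11 of 56 and 19 of 57 genes were shared with the first sets.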
